A study of Mus musculus with 6 samples.

Results

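The 10 genes described here encode Wnt ligands (Wnt1, Wnt2b, Wnt3, Wnt3a, Wnt4, Wnt5a, Wnt7a, Wnt7b, Wnt8b and Wnt9a), and they were taken by symbol from the 48526 gene identifiers of a count table. All 10 passed the filter on low counts and are among the 20549 genes tested. The table holds RNA-seq of neural progenitor cells made from mouse embryonic stem cells (mESCs), with 3 libraries labelled Dmrta2 -/- and 3 labelled Dmrta2 flox/flox, the control in which recombinase sites flank part of the gene. Each genotype came from 1 mESC line, so genotype and line cannot be told apart, and a p-value covers only how far replicates of one line vary.

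Cells of both groups were grown without serum. Both received LDN193189 (100 nM), a BMP receptor inhibitor, and SB431542 (10 µM), an activin and TGF-beta receptor inhibitor, up to day 4. Both received XAV939 (1 µM), a tankyrase inhibitor that stabilises Axin and so dampens signalling by Wnts through beta-catenin, up to day 6, and the Hedgehog pathway inhibitor cyclopamine (1 µM) from day 2 to day 10. Cells were replated on day 5, and RNA was taken on day 8, after XAV939 had been withdrawn and with cyclopamine still present. The columns of the table carry a genotype and a letter (A, B or C), and libraries are named by these.

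Total counts ran from 29031604 to 39646793 in the libraries labelled -/- and from 24565560 to 29820515 in those labelled flox/flox. Counts of Dmrta2 itself were higher in the libraries labelled -/- (409 to 439 CPM) than in those labelled flox/flox (75.1 to 85.2 CPM). CPM are counts scaled to a common library size with TMM factors. The count covers the whole gene and the deleted part is not given, so it checks nothing about the deletion, and every direction below is that of the libraries as labelled. The progenitor markers Sox1, Sox2, Pax6 and Nes were present in both groups, at means of 100, 181, 162 and 676 CPM in libraries labelled -/- and 71.4, 234, 108 and 813 CPM in those labelled flox/flox.

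Wnt proteins are secreted, lipid-modified glycoproteins that bind Frizzled receptors on nearby cells. With the co-receptors Lrp5 and Lrp6 they stabilise beta-catenin and switch on Tcf/Lef target genes, while some ligands, Wnt5a above all, also act without beta-catenin through receptors such as Ror2. In the embryonic forebrain the cortical hem, at the dorsal midline, is a major source of Wnts, and Wnt7a and Wnt7b are made by progenitors and neurons of the wider neural tube.

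Of the 10 ligand genes, 5 fell in the libraries labelled -/- (Wnt3a, Wnt4, Wnt5a, Wnt8b and Wnt9a), 1 rose (Wnt7a), and Wnt1, Wnt2b, Wnt3 and Wnt7b did not pass an adjusted p of 0.05 in edgeR's quasi-likelihood test. Without -/- B, 3 of the 5 falls passed. Among all tested genes 35.3% passed, 17.9% higher and 17.4% lower in the libraries labelled -/-. For 7 of the 10 members every library of one group lay above every library of the other, as was so for 51.0% of tested genes. The members had a median log2 fold change of -1.22, against a median over all tested genes that rounds to 0. With an adjusted p under 0.05, 4 of them fell by 1 or more on the log2 scale, which 6.60% of tested genes did. The members were proposed with results of these libraries known, so these counts describe the list and are no independent evidence for it.

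**Figure D1:**
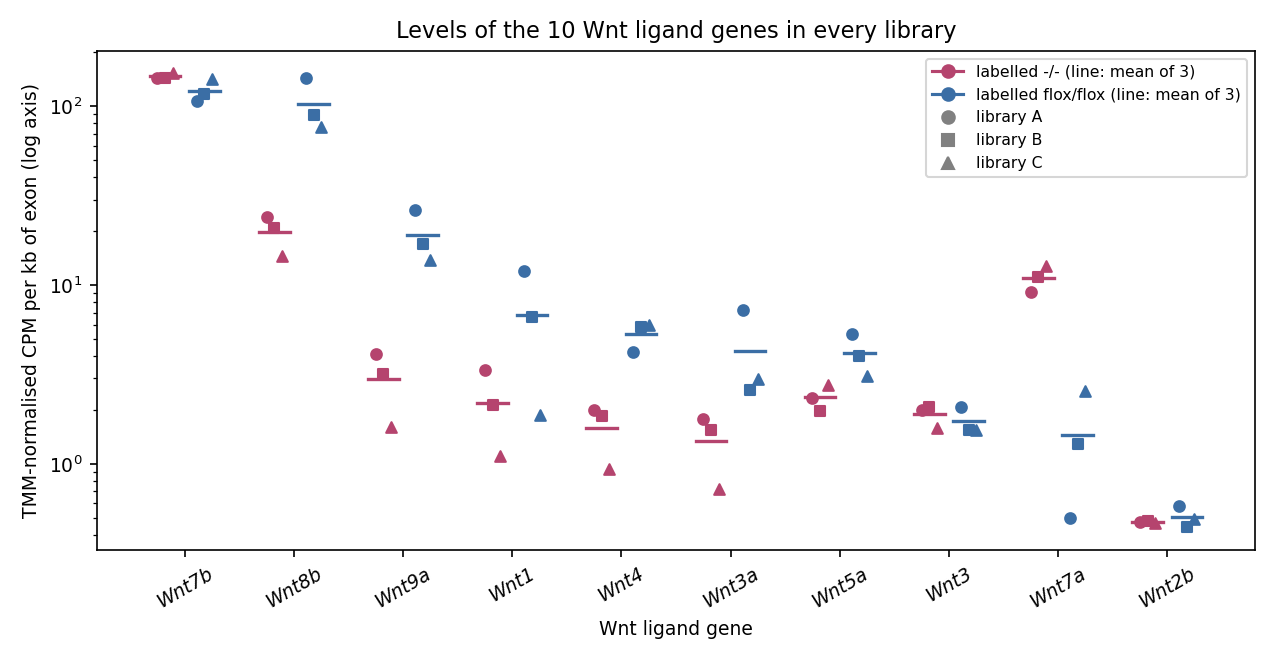
Levels of the 10 Wnt ligand genes, as TMM-normalised CPM per kb of exon on a log axis, in 3 libraries labelled -/- (left of each pair) and 3 labelled flox/flox (right), with lines at the means. Wnt7b lay above 100 CPM per kb in every library, Wnt8b and Wnt9a were lower in every library labelled -/-, and Wnt7a was higher in every library labelled -/-.

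**Figure D2:**
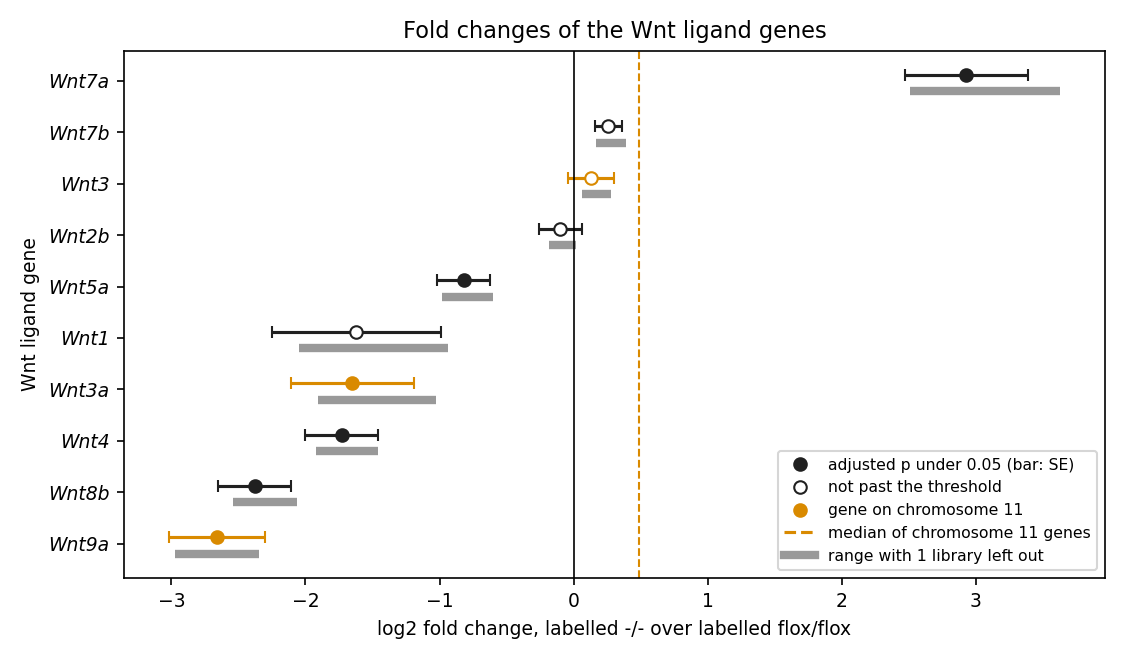
Log2 fold changes of the 10 genes, libraries labelled -/- over those labelled flox/flox (points with SE, filled where the adjusted p is under 0.05), with the range seen when 1 library is left out (grey bars). Orange points are genes of chromosome 11 and the dashed line is the median of that chromosome, 0.49. Wnt9a and Wnt3a lie far below that line.

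Promoters of 4 of the ligand genes are shown first. The letters run from 250 bases before to 50 bases after the RefSeq start (GRCm38.p6), with each CpG dinucleotide in capitals. Wnt8b and Wnt9a had the largest falls, Wnt3a is the head-to-head neighbour of Wnt9a, and Wnt7a is the member that rose. They lie at chr19:44493222-44493521 (plus strand), chr11:59306680-59306979 (plus strand), chr11:59290702-59291001 (minus strand) and chr6:91411304-91411603 (minus strand).
Wnt8b: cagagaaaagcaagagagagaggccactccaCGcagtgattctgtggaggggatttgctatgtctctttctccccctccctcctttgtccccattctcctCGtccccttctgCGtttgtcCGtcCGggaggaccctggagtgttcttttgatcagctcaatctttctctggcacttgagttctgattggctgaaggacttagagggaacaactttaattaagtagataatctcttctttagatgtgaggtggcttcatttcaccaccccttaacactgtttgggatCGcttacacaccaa
Wnt9a: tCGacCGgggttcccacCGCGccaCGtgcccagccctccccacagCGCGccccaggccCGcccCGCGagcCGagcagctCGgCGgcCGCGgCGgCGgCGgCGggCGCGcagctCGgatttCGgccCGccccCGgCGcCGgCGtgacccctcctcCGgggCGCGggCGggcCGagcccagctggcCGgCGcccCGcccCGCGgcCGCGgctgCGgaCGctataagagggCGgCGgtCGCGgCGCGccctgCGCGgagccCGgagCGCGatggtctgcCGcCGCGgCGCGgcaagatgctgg
Wnt3a: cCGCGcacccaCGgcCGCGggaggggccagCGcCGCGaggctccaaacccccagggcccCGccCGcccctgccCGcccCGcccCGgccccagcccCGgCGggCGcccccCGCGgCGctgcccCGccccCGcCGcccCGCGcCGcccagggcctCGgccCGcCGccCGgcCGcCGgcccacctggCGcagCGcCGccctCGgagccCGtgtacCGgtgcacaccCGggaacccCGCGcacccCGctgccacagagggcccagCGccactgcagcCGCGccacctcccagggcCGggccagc
Wnt7a: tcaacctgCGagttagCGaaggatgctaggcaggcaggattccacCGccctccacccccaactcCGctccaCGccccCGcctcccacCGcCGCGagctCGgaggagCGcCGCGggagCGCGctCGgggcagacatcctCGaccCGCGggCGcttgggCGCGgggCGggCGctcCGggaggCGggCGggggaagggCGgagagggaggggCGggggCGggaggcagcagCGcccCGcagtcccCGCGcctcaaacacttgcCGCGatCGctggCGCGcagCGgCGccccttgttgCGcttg

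The Wnt8b promoter holds 6 CpG dinucleotides and is 48.3% G and C, while the Wnt9a, Wnt3a and Wnt7a promoters hold 58, 45 and 42 CpGs and are 83.3%, 86.3% and 76.0% G and C. RefSeq promoters matched 8 of the 10 members, with 1 each, and the members with no entry are Wnt5a and Wnt7b. Over all 32841 promoters of this length the medians were 7 CpGs and 52.7% G and C. Wnt8b thus stands near the middle of all promoters, and the other 7 members, with 24 to 58 CpGs, stand at or above the 80.0th percentile in CpG number. ACATTGT, the core of the DMRT family motif, and CTTTGAT, a TCF/LEF motif, were searched on both strands and cannot overlap each other. Neither is in any of the 8 promoters, where 2.97% and 3.73% of all promoters hold them. This says only that these letters are not in these windows.

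Wnt8b, a ligand gene known from the dorsal midline of the forebrain and the hippocampal primordium, fell 5.20-fold. It measured 83.5, 72.1 and 50.4 CPM in -/- A, B and C, against 498, 309 and 265 CPM in flox/flox libraries A, B and C. All 3 libraries labelled -/- lay below the lowest control library, and library A was the highest and library C the lowest of each group. The log2 fold change was -2.38 ± 0.27 (SE; adjusted p = 0.00095, edgeR). The gene (ENSMUSG00000036961) lies on chromosome 19 of GRCm38, at 44493472 to 44514273 on the plus strand.

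Wnt9a, best known for its role in joint formation, fell 6.32-fold, the largest fall of the 10. Its levels were 13.7, 10.5 and 5.34 CPM in -/- A, B and C, against 87.1, 56.2 and 45.6 CPM in flox/flox libraries A, B and C. The groups were separated by a wide gap. The log2 fold change was -2.66 ± 0.36 (SE; adjusted p = 0.00166, edgeR). Wnt3a, a classical beta-catenin ligand that is needed for growth of the hippocampus, fell 3.13-fold, with 4.88, 4.25 and 2.00 CPM in -/- A, B and C, against 19.8, 7.10 and 8.20 CPM in flox/flox libraries A, B and C. The groups did not overlap, but flox/flox A stood well above the other controls. Its log2 fold change was -1.65 ± 0.46 (SE; adjusted p = 0.0283, edgeR), and it was not called without flox/flox A (-1.03, adjusted p = 0.0615), without -/- B (adjusted p = 0.0725) or without -/- C (adjusted p = 0.0655).

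Wnt3a and Wnt9a are neighbours on chromosome 11. Wnt3a (ENSMUSG00000009900) runs on the minus strand at 59248033 to 59290752 and Wnt9a (ENSMUSG00000000126) on the plus strand at 59306928 to 59333552. Their starts lie 16176 bases apart, facing away from each other, with 0 annotated genes between. A second head-to-head pair on this chromosome is Wnt9b and Wnt3, whose starts lie 24329 bases apart with 0 genes between.

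Genes of chromosome 11 were higher as a whole in the libraries labelled -/-, with a median log2 fold change of 0.49 over 1589 tested genes against -0.022 for all others. On that chromosome 59.6% of tested genes rose and 6.04% fell, and 0.378% and 1.57% of them had a lower fold change than Wnt9a and Wnt3a. The falls of these ligand genes thus ran opposite to their chromosome. With the chromosome's offset of 0.516 taken out, their log2 fold changes were -3.18 ± 0.37 and -2.16 ± 0.47 (SE; adjusted p = 0.00141 and 0.0119, edgeR). In that fit 16.2% of the chromosome's genes rose and 21.9% fell, and of the 3 members on it 2 fell and 0 rose.

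Wnt3, the paralog of Wnt3a that is needed for gastrulation, is the other member on chromosome 11 (ENSMUSG00000000125, 103774150 to 103817957, plus strand). It measured 6.15, 6.37 and 4.89 CPM in -/- A, B and C, against 6.38, 4.78 and 4.78 CPM in flox/flox libraries A, B and C, and the groups overlapped. Its log2 difference of 0.13 ± 0.17 (SE) did not pass the threshold (adjusted p = 0.600, edgeR). With the offset taken out the sign turned, at -0.39 ± 0.17 (SE; adjusted p = 0.121, edgeR), so no direction can be given for Wnt3.

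Wnt4, a ligand known for kidney and female reproductive tract development, fell 3.31-fold. It measured 8.38, 7.73 and 3.94 CPM in -/- A, B and C, against 17.6, 24.3 and 25.2 CPM in flox/flox libraries A, B and C. The groups did not overlap, and here flox/flox A was the lowest of the controls. The log2 fold change was -1.73 ± 0.27 (SE; adjusted p = 0.00302, edgeR). Wnt5a, which signals largely without beta-catenin, fell less. It was at 18.3, 15.4 and 21.4 CPM in -/- A, B and C, against 41.7, 31.2 and 24.4 CPM in flox/flox libraries A, B and C. The gap between -/- C and flox/flox C was small. Its log2 fold change was -0.82 ± 0.20 (SE; adjusted p = 0.0177, edgeR), and the call was lost without flox/flox B (adjusted p = 0.0510) or -/- B (adjusted p = 0.0680). Of the exonic bases of Wnt5a, 4.58% lie under exons of Gm2670 on the opposite strand.

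Wnt1, the ligand of the midbrain-hindbrain boundary and of the dorsal midline behind the forebrain, varied more within groups than any other member. It measured 7.95, 5.10 and 2.64 CPM in -/- A, B and C, against 28.4, 15.8 and 4.46 CPM in flox/flox libraries A, B and C. The groups overlapped, since flox/flox C lay below -/- A and -/- B. Among the controls the highest library was 6.37 times the lowest. The log2 difference of -1.62 ± 0.63 (SE) did not pass the threshold (adjusted p = 0.0845, edgeR). With a replicate block on the letter it passed (-1.50, adjusted p = 0.00121), and it did so too without flox/flox C (-2.05, adjusted p = 0.0105). Without flox/flox A the log2 difference was -0.94. Wnt2b, a hem ligand, had the lowest mean of the members in both groups. It measured 1.98, 2.01 and 1.97 CPM in -/- A, B and C, against 2.43, 1.86 and 2.07 CPM in flox/flox libraries A, B and C. Its log2 difference was -0.10 ± 0.16 (SE; adjusted p = 0.686, edgeR), from 49 to 78 reads per library.

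Wnt7a and Wnt7b are close paralogs that activate beta-catenin through a receptor complex with Reck and Adgra2. Wnt7a, the member that passed as higher, rose 7.62-fold. It was at 29.0, 34.8 and 40.2 CPM in -/- A, B and C, against 1.59, 4.10 and 8.12 CPM in flox/flox libraries A, B and C. Every library labelled -/- was above every control by a wide margin, though the controls differed 5.12-fold among themselves. The log2 fold change was 2.93 ± 0.46 (SE; adjusted p = 0.00288, edgeR), and 3.63, or 12.4-fold, without flox/flox C. Wnt7a (ENSMUSG00000030093) lies on chromosome 6 at 91363981 to 91411363 on the minus strand.

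Wnt7b had the most reads of any member, 698, 705 and 746 CPM in -/- A, B and C, against 524, 574 and 696 CPM in flox/flox libraries A, B and C. The groups did not overlap, but -/- A and flox/flox C were nearly level. The log2 difference of 0.26 ± 0.10 (SE) did not pass (adjusted p = 0.0857, edgeR). It passed with a replicate block on the letter (0.27, adjusted p = 0.0182) and without flox/flox C (0.39, adjusted p = 0.00726). Of the exonic bases of Wnt7b, 6.61% lie under exons of AU022754 on the opposite strand. With the block, 2 members rose and 6 fell, where 21.2% and 20.3% of all tested genes did.

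Compared per kilobase of exon, the order of the 10 members differed between the groups. This order leaves out Wnt8a and Wnt5b, which are no members. Their means were 6.90 and 2.92 CPM per kb in libraries labelled -/- and 5.38 and 5.84 CPM per kb in those labelled flox/flox. In the libraries labelled -/- Wnt7b led at 146 ± 5.25 CPM per kb, followed by Wnt8b at 19.7 ± 4.85 and Wnt7a at 10.9 ± 1.77 CPM per kb (SD, n = 3 each), and no 2 neighbours among these overlapped. In the libraries labelled flox/flox Wnt7b (122 ± 18.1 CPM per kb) and Wnt8b (103 ± 35.5 CPM per kb) overlapped at the top, followed without overlap by Wnt9a at 18.9 ± 6.48 CPM per kb. Below these, in the libraries labelled -/-, Wnt9a, Wnt5a, Wnt1, Wnt3, Wnt4 and Wnt3a, at means of 2.97 to 1.34 CPM per kb, each overlapped the next. In those labelled flox/flox Wnt1, Wnt4, Wnt3a and Wnt5a, at means of 6.81 to 4.15 CPM per kb, did the same, and Wnt7a was the 9th of 10, overlapping both Wnt3 and Wnt2b. With the longest transcript as length Wnt7b was at 211 and 176 CPM per kb in the libraries labelled -/- and flox/flox, and Wnt3a and Wnt5a changed places in the controls.

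**Figure D3:**
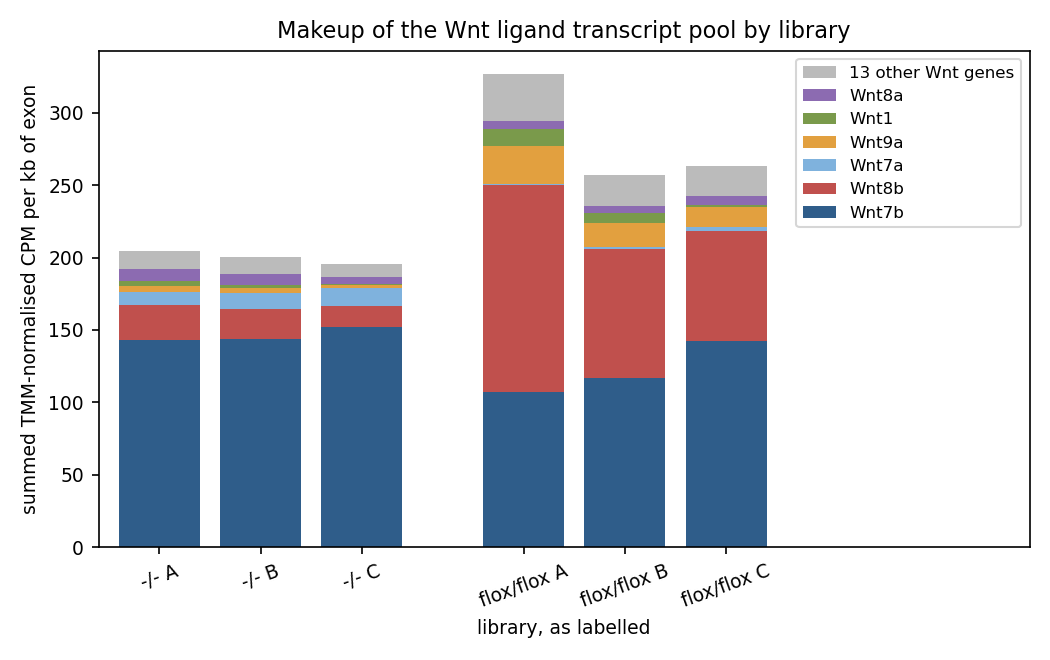
Summed levels of all 19 Wnt ligand genes, as TMM-normalised CPM per kb of exon, in each library labelled -/- (left) and flox/flox (right). The sums were 204, 200 and 196 CPM per kb in -/- A, B and C and 326, 257 and 263 CPM per kb in flox/flox libraries A, B and C, with Wnt7b as most of the bar in the libraries labelled -/-.

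Summed over all 19 Wnt ligand genes, the pool was 204, 200 and 196 CPM per kb in -/- A, B and C, against 326, 257 and 263 CPM per kb in flox/flox libraries A, B and C. The 10 members made up 94.8% ± 1.21 of it in libraries labelled -/- and 94.9% ± 0.529 in those labelled flox/flox (SD, n = 3 each). Wnt7b alone gave 69.8%, 72.0% and 77.7% of the pool in -/- A, B and C, against 32.7%, 45.5% and 54.0% in flox/flox libraries A, B and C. Wnt8b gave 11.8%, 10.4% and 7.38% in -/- A, B and C, against 43.8%, 34.5% and 29.0% in flox/flox libraries A, B and C. The ratio of Wnt7b to Wnt8b, both per kb, was therefore 5.94, 6.94 and 10.5 in -/- A, B and C, against 0.747, 1.32 and 1.86 in flox/flox libraries A, B and C. Wnt7b exceeded Wnt8b in every library but flox/flox A. The members other than Wnt7a and Wnt7b summed to 40.1, 34.0 and 23.6 CPM per kb in -/- A, B and C, against 201, 127 and 106 CPM per kb in flox/flox libraries A, B and C.

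Within groups, several ligands followed the column letter, which is not stated to pair the libraries. Wnt4 ran in opposite orders in the groups, and Wnt2b, Wnt3, Wnt3a and Wnt5a did not share a full order between them. Wnt1, Wnt8b and Wnt9a were highest in library A and lowest in library C of both groups, while Wnt7a and Wnt7b were highest in library C and lowest in library A of both groups. The summed level of 10 neuron markers was also highest in library C of both groups, at 2610, 2900 and 4450 CPM in -/- A, B and C, against 1200, 1540 and 2150 CPM in flox/flox libraries A, B and C. Of these neuron markers 9 rose (5 without flox/flox A and 4 without flox/flox B), and Tubb3, with a log2 difference of 0.70, missed the threshold (adjusted p = 0.0663, edgeR). With a replicate block on the letter Tubb3 passed (0.72, adjusted p = 0.000362) and all 10 rose. Of the 10, 2 lie on chromosome 11, Rbfox3 and Mapt. With the offset of chromosome 11 taken out Rbfox3 was not called (0.78, adjusted p = 0.0993, edgeR). In that fit Stmn2, on another chromosome, was not called either (0.69, adjusted p = 0.0522). Markers of the cortical hem, roof plate and choroid plexus fell in 9 of 10 tested genes, and their summed level was 134 to 186 CPM in libraries labelled -/- and 801 to 1170 CPM in those labelled flox/flox. Gdf7 was not called without -/- A or without -/- B (adjusted p = 0.0616 and 0.072, edgeR). Ttr, not called with all libraries, passed as lower without flox/flox C (adjusted p = 0.0436, edgeR). Without flox/flox A its log2 difference turned to 0.23. Lmx1a, which encodes a regulator of roof plate and hem fate, was at 4.62 ± 0.778 CPM in libraries labelled -/- and 37.9 ± 8.31 CPM in those labelled flox/flox (SD, n = 3 each). No marker of either list was at 0 in all libraries, and the part of these cells in the ligand changes was not tested. In bulk RNA, fewer cells of a type and less RNA per cell cannot be told apart.

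Of the other marker lists, 9 of 9 progenitor genes were called, 5 higher and 4 lower (3 and 2 without flox/flox B, 3 and 1 without -/- B), with sums of 3190 to 3470 CPM in libraries labelled -/- and 3310 to 3850 CPM in those labelled flox/flox. Of 7 midbrain and hindbrain genes 4 fell and 0 rose, with sums of 15.5 to 21.0 CPM in libraries labelled -/- and 42.0 to 59.8 CPM in those labelled flox/flox, beside the Wnt1 values above. Of 6 telencephalic genes 2 rose and 3 fell, and 0 rose without flox/flox B. Of 4 neural crest genes 1 rose and 1 fell, 2 rose without flox/flox A or without -/- A, and 2 fell with the block. Of 6 mesoderm and endoderm genes 2 rose and 1 fell, 1 rose without flox/flox B, flox/flox C, -/- A or -/- B, and 0 fell without flox/flox A or without -/- B. Of 4 pluripotency genes 1 fell and 0 rose, 0 fell without any single flox/flox library or without -/- B, and 1 rose with the block. Beside all these marker lists, 17.9% of all tested genes rose and 17.4% fell, or 21.2% and 20.3% with the block. Whether a list departs from these shares was not tested.

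Of the other 9 Wnt ligand genes, Wnt2, Wnt9b, Wnt10a and Wnt10b had too few reads to be tested. Of the 5 tested, 3 fell and 0 rose. Wnt5b, the paralog of Wnt5a, was at 7.76 ± 1.42 CPM in libraries labelled -/- and 15.5 ± 3.30 CPM in those labelled flox/flox (SD, n = 3 each), and fell by 1.00 on the log2 scale (adjusted p = 0.00614, edgeR). Wnt6 was at 0.398 ± 0.0239 CPM in libraries labelled -/- and 5.73 ± 5.05 CPM in those labelled flox/flox (SD, n = 3 each), a log2 fold change of -3.85 (adjusted p = 0.00648, edgeR) and of -2.86 without flox/flox A. Wnt16 fell too (-1.62, adjusted p = 0.0211, edgeR), from levels under 1 CPM, and its call was lost in 5 of the 6 fits that left out 1 library, all but that without flox/flox A. Wnt8a, at 14.8, 13.6 and 7.81 CPM in -/- A, B and C, against 9.38, 8.54 and 10.2 CPM in flox/flox libraries A, B and C, and Wnt11 did not pass (log2 differences 0.37 and 0.15). Without -/- C, Wnt8a passed (0.60, adjusted p = 0.00904, edgeR).

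**Figure D4:**
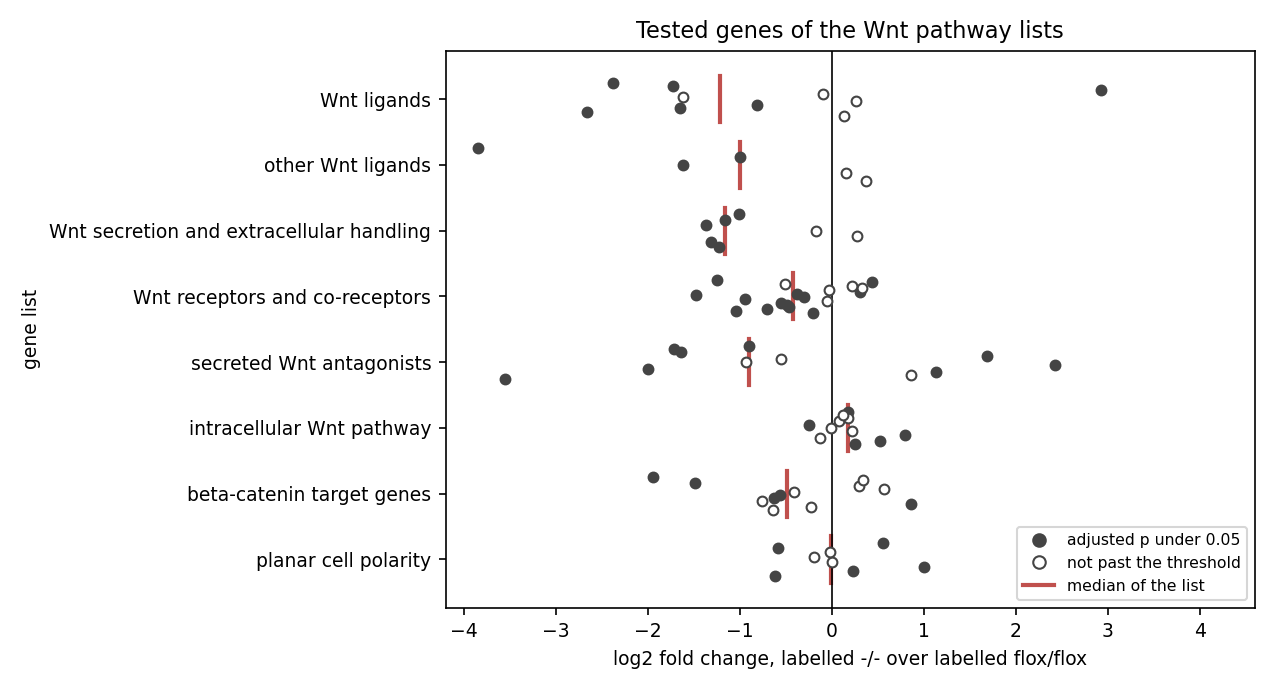
Log2 fold changes, libraries labelled -/- over those labelled flox/flox, of every tested gene of 8 lists of the Wnt pathway, filled where the adjusted p is under 0.05, with the median of each list in red. The ligands and the genes of Wnt secretion had medians of -1.22 and -1.16, and the secreted antagonists ran from -3.56 to 2.43.

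Of 7 genes that handle Wnts outside and on the way out of the cell, 5 fell and 0 rose, with a median log2 fold change of -1.16. Beside this list and the pathway lists below, 17.9% of all tested genes rose and 17.4% fell, or 21.2% and 20.3% with the block. Wls, the carrier that brings Wnts to the cell surface, was at 151 ± 24.7 CPM in libraries labelled -/- and 354 ± 102 CPM in those labelled flox/flox (SD, n = 3 each; log2 fold change -1.23, adjusted p = 0.00410, edgeR). The glypicans Gpc6 and Gpc4, cell surface proteoglycans, fell by 1.16 and 1.32 on the log2 scale. Porcn, the enzyme that attaches the lipid to Wnts, was at 14.2 ± 3.95 CPM in libraries labelled -/- and 11.7 ± 1.12 CPM in those labelled flox/flox and did not pass (adjusted p = 0.318, edgeR). It is named for its role, outside the rule for named genes.

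Of 18 receptors and co-receptors 11 fell and 2 rose, with a median of -0.42. Fzd10 was at 19.8 ± 2.16 CPM in libraries labelled -/- and 47.2 ± 4.85 CPM in those labelled flox/flox (SD, n = 3 each; log2 fold change -1.25, adjusted p = 0.000445, edgeR), and Ryk and Ror1, receptors of signalling without beta-catenin, fell by 0.30 and 1.48 on the log2 scale. Reck and Adgra2, the partners of Wnt7a and Wnt7b, fell as well, by 0.55 and 0.95 (adjusted p = 0.0152 and 0.0167, edgeR), Adgra2 not without -/- A (adjusted p = 0.0504). They are named for that link, outside the rule for named genes. Fzd2 and Fzd7 rose by 0.44 and 0.31. Fzd2 lies on chromosome 11 and was not called with that chromosome's offset taken out (-0.08, adjusted p = 0.406), and Fzd7 was not called without either of the flox/flox libraries B and C or without -/- B. Without -/- B, 7 receptors fell and 1 rose.

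Secreted antagonists split, with 3 of 11 tested members rising and 5 falling (3 falling without -/- B). Sfrp2, a Frizzled-related protein that binds Wnts, was at 346 ± 11.5 CPM in libraries labelled -/- and 64.2 ± 9.57 CPM in those labelled flox/flox (SD, n = 3 each; log2 fold change 2.43, adjusted p = 7.7e-05, edgeR). Its relative Sfrp1 was at 44.1 ± 5.33 CPM in libraries labelled -/- and 137 ± 41.2 CPM in those labelled flox/flox (log2 fold change -1.64, adjusted p = 0.00124, edgeR). Dkk3 and Dkk1, of the Dickkopf family, rose by 1.69 and 1.13, Dkk1 not without flox/flox B or -/- B. Wif1 and Frzb, which bind Wnts, fell by 3.56 and 2.00, Frzb by 1.39 without flox/flox A. Of the exonic bases of Sfrp2, 16.1% lie under exons of Gm26771 on the opposite strand.

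Inside the cell, 4 of 11 pathway genes rose and 1 fell, all by less than 1 on the log2 scale. Dvl2 rose by 0.79, on chromosome 11, where the median log2 fold change was 0.49. Of the exonic bases of Dvl2, 19.7% lie under exons of Acadvl on the opposite strand and Mir324 on the same strand. Apc, the scaffold of the beta-catenin destruction complex, rose by 0.52, while Dvl3 rose by 0.25 and the kinase gene Csnk1a1 fell by 0.25. The calls of Dvl3 and Csnk1a1 were both lost without flox/flox B or without -/- B, and that of Dvl3 also without flox/flox A. In each of these fits 2 genes of this list rose, and without either B library 0 fell. Tnks and Tnks2, which encode the tankyrases that XAV939 inhibits, did not pass (log2 differences 0.12 and 0.08). They are named for that link, outside the rule for named genes.

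Of 12 target genes of beta-catenin 4 fell and 1 rose, and 8 fell and 4 rose with a replicate block on the letter. Of the 12, 4 lie on chromosome 11, whose genes were higher as a whole. With the block Rnf43 and Znrf3 of these rose, by 0.57 and 0.29, and Axin2 and Tcf7 fell. With the chromosome's offset taken out Znrf3 was at -0.23 (adjusted p = 0.24, edgeR). Rnf43, Znrf3 and Tcf7 are named for their place on that chromosome, outside the rule for named genes. Lef1, a transcription factor of the pathway, was at 27.9 ± 1.96 CPM in libraries labelled -/- and 41.5 ± 1.83 CPM in those labelled flox/flox (SD, n = 3 each; log2 fold change -0.57, adjusted p = 0.00155, edgeR). Tnfrsf19 fell by 1.49 on the log2 scale. Sp5 fell by 1.95, by 1.31 without flox/flox A and not called without -/- B. Lgr5, a receptor of R-spondins, rose by 0.86 from levels under 3 CPM, and its call was lost without flox/flox A, flox/flox B, -/- A or -/- C. Axin2, a feedback inhibitor on chromosome 11, was at 104 ± 23.5 CPM in libraries labelled -/- and 161 ± 58.4 CPM in those labelled flox/flox (log2 difference -0.64, adjusted p = 0.108, edgeR). It passed with the block (-0.60, adjusted p = 0.00199) and with the chromosome's offset taken out (-1.15, adjusted p = 0.0168), and is named because of these. Axin2 passed too with DESeq2 (-0.64, adjusted p = 0.0417) and without flox/flox C (-0.85, adjusted p = 0.0239, edgeR). Planar cell polarity genes, which carry signals of Wnts without beta-catenin, rose in 3 of 8 members and fell in 2, with Celsr2, Celsr3 and Scrib rising by 0.56, 1.00 and 0.23 and Prickle1 and Celsr1 falling by 0.59 and 0.62. Without flox/flox B, -/- B or -/- C, 1 of them rose.

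For the 9 members with a mean of at least 5 CPM, which leaves out Wnt2b, the genes whose log2 CPM ran most nearly parallel across the 6 libraries were sought among 11394 other protein-coding genes with a mean of at least 5 CPM. Pearson's r is given as a description only, since the points share the split between groups. For Wnt8b they were Adgrb2, Patj and Itga1 (r of 0.9989 to 0.9987), and for Wnt9a Tgfbr3, L1td1 and Zic5 (0.9994 to 0.9989). For Wnt1 they were Phactr2, Zic1 and Epb41l3 (0.9992 to 0.9936), for Wnt3a Lsg1, Spg20 and Slc35e3 (0.9918 to 0.9911), and for Wnt4 S100a6, Naca and Serpinb9b (0.9988 to 0.9978). For Wnt5a they were Pcdh7, Svbp and Polr2l (0.9970 to 0.9946), for Wnt7a Zfyve19, Ptprz1 and Mlst8 (0.9975 to 0.9970), for Wnt7b Ap1m1, Brms1 and Fgfr3 (0.9952 to 0.9936), and for Wnt3 Lgmn, Grn and Siae (0.9918 to 0.9744). No gene was among the first 3 of 2 ligands.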

How the data were processed

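The authors deposited 1 table of raw counts, which gives reads per Ensembl gene and library without normalization. The submitters' processing notes name BWA 0.5.9, featureCounts 1.4.6 and the build mm10 (GRCm38). The name of the deposited counts says that duplicates were marked. Whether duplicates were counted, the annotation release and the strand setting were not given in the sources used here. How reads under exons of overlapping genes were counted is therefore not known. Columns were assigned to a genotype by name, and 0 sample columns stayed unused. Symbols, positions and exon lengths came from GENCODE M21 (GRCm38), which named 48144 of 48526 identifiers.

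Counts were tested in R 4.3.3 with edgeR 4.0.16 (filterByExpr with minimum count 10 and minimum total 15, TMM factors, glmQLFit and glmQLFTest on group alone, two-sided). P-values were Benjamini-Hochberg adjusted over 20549 genes at a threshold of 0.05, and the procedure was tested on simulated counts. The SE is the log2 fold change divided by the square root of F. Libraries of a group differed by more than sampling noise (chi-square per gene 5.14 to 27.6). The letters are not stated to pair the libraries. Deviations of same-letter libraries from their group means had r of 0.328, 0.124 and 0.314 for A, B and C. Pairs of unlike letters had r from -0.357 to 0.044. The deviations of a group sum to 0 for each gene, so these r values depend on one another. They cannot decide whether the letters pair the libraries. A block on the letter was fitted as an alternative. The others were DESeq2 1.42.0, limma-voom (limma 3.58.1), other scalings and filters, a chromosome 11 offset and each library left out. Text names every member, every other Wnt gene, up to 3 genes per list and direction by adjusted p, and the 3 genes nearest each member with a mean of at least 5 CPM. Members and lists were chosen with earlier results of these data known. A gene of the marker lists is counted with its list, and its own values are not reported here. The alternatives were applied to the marker lists after seeing the data.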

Additional observations from a re-analysis of the deposited data

How the results depend on the processing

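Over the 10 ligand genes and 14 alternatives, 127 of 140 fold changes kept their direction and their side of the threshold. Wnt4, Wnt7a, Wnt8b and Wnt9a did so in all 14, with adjusted p of at most 0.0162, 0.0192, 0.00682 and 0.0106. With no low-count filter Wnt1 (-1.60) and Wnt7b (0.28) passed, and with the replicate block on the column letter they passed at -1.50 and 0.27. The block changed no other call among the 10. With the chromosome 11 offset Wnt3 was at -0.39. With 1 library left out, log2 values ran from -2.05 to -0.94 for Wnt1, from -0.18 to 0.02 for Wnt2b (0.02 without flox/flox A), from -1.91 to -1.03 for Wnt3a, from -0.98 to -0.60 for Wnt5a and from 0.17 to 0.39 for Wnt7b. Of 252 counts of calls, 222 stayed within 1.5 times. The number of ligands that rose was 2 with no filter and 2 with the block, and with 1 library left out 1 to 2 rose and 3 to 6 fell. In the same fits 2315 to 3510 of all genes rose (fewest without flox/flox B) and 2342 to 3336 fell (fewest without -/- B), against 3679 and 3571 with all libraries. The other ligands that rose ran from 0 to 1, receptors that rose from 1 to 3 and that fell from 7 to 11, antagonists that fell from 3 to 7, intracellular genes that rose from 2 to 4 and that fell from 0 to 1, beta-catenin targets that rose from 0 to 2 and polarity genes that rose from 1 to 3. With the chromosome 11 offset 1 receptor rose. Of the beta-catenin targets, 2 rose with no filter, 2 with DESeq2, 0 with limma-voom and 4 with the block, where 8 fell. The cause was not tested. Levels per kb moved by more than 1 SD in 4 of 40 cases, those of Wnt2b and Wnt7b with the longest transcript as length. Wnt2b, with 49 to 78 reads per library, had the fewest of the 10 ligands in every library but flox/flox A. Wnt7a had 47, 108 and 204 reads in flox/flox libraries A, B and C. Wnt2, Wnt9b, Wnt10a and Wnt10b had too few reads to be tested.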
